A study of Homo sapiens with 8 samples.

Results

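Binding of RUNX1 was examined at 5 transcription factor genes that bear on erythroid fate, with the peaks of each library taken from 50 kb before to 50 kb after each gene on hg38. The genes were KLF1, MYB, BCL11A, SOX6 and IKZF1. Their windows held 26 of the 33478 regions that the 6 peak lists of the series form together, a region being a stretch where peaks of any list overlap. KLF1 had 7 regions, MYB 4, BCL11A 0, SOX6 6 and IKZF1 9. The peaks came from CUT&RUN, in which an antibody directs a nuclease to the bound protein and the released DNA is sequenced.

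The cells were HEL, an established erythroleukemia line with erythroid and megakaryocytic features, transduced and kept in puromycin at 2 µg/ml. The lines compared expressed HA-tagged RUNX1-4D, HA-tagged RUNX1-4A or HA-tagged WT RUNX1, with 2 biological replicates each, and a line with the empty vector served as the background for peak calling, though the sources used here do not say how its replicates entered the calls. By the usual naming of such mutants, 4D carries aspartate and 4A alanine in place of serine or threonine. RUNX1 that the cells make themselves carries no tag and was not measured, and the sources used here do not say whether a line was 1 clone. Peak lists hold no expression values, so neither the cell type nor the level of each form could be checked.

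KLF1 is a zinc finger activator of the globin, heme and red cell membrane genes and favours erythroid over megakaryocytic fate; RUNX1 is known as a repressor of KLF1 during megakaryocytic differentiation. MYB keeps progenitors dividing and supports the erythroid branch, and reduced MYB is linked to more platelets and more fetal haemoglobin. BCL11A silences the fetal globin genes, SOX6 acts with it, and IKZF1 (Ikaros) is a zinc finger chromatin regulator of lymphoid cells that also acts in erythroid and megakaryocytic cells.

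Of the start sites used here, the most upstream listed for each gene, those of KLF1, MYB and SOX6 had a peak over or beside them. BCL11A was the gene with no peak in its window. The 250 bases upstream of the start site of each of these 4 genes are therefore shown, from RefSeq on GRCh38.p14, 5′ to 3′ on the strand of the gene. They lie at chr19:12887202-12887451 on the minus strand (KLF1), chr6:135181058-135181307 on the plus strand (MYB), chr11:16738478-16738727 on the minus strand (SOX6) and chr2:60553925-60554174 on the minus strand (BCL11A). Capitals mark matches of the RUNX letters TGTGGN or the GATA letters NGATAA on either strand.
KLF1: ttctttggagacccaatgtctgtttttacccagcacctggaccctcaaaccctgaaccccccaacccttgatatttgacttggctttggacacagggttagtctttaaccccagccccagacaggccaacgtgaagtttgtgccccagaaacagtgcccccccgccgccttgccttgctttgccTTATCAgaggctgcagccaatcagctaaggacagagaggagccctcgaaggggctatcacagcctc
MYB: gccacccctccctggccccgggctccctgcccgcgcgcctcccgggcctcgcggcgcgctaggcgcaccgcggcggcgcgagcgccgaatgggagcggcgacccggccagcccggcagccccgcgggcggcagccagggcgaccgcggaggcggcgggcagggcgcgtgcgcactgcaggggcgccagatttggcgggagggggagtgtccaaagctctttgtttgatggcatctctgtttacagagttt
SOX6: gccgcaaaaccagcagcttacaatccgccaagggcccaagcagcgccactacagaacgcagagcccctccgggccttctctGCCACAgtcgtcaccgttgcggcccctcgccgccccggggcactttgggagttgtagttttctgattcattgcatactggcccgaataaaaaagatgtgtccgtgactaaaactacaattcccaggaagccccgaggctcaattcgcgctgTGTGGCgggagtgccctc
BCL11A: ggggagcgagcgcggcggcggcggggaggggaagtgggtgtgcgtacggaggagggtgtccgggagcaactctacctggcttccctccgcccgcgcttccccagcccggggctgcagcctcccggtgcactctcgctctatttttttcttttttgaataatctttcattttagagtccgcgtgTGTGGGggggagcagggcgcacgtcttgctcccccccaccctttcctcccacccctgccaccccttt

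The full RUNX letters TGTGGT were in none of these 4 windows, nor in that of IKZF1, and were in 9.1% of the 15841 protein-coding promoters of the table. The shorter TGTGGN, chosen after the sequences were seen, matched at -169 and -18 from the start site of SOX6 and at -67 from that of BCL11A and at -95 from that of IKZF1, and was in 41.6% of promoters. KLF1 held NGATAA at -66, on the minus strand of the printed sequence (16.5% of promoters). AGATAA, the box CCACACCC bound by KLF1, and the MYB letters TAACNG were in none of the 5 windows (6.92%, 3.14% and 15.8% of promoters). The E box CANNTG (57.8%) was in those of KLF1 and IKZF1, and the ETS letters GGAAGT (21.3%) were in those of BCL11A and IKZF1. A match is a run of letters and was not tested for binding. The upstream bases of MYB were 75.6% G or C with 34 CpG sites, and those of KLF1 55.2% with 4.

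None of the 5 genes had a region called in both replicates of any line. Among all 20033 protein-coding genes, with windows built the same way, 39.2% had such a region in 4D, 42.7% in 4A and 46.9% in WT, and 30.5% had a region called in all 6 libraries. Regions of the replicate 2 lists lay at 4 of the 5 genes in each line (KLF1, MYB, SOX6 and IKZF1), against 72.4% (4D), 75.7% (4A) and 75.9% (WT) of all genes. At each of these 4 genes at least 1 region was in all 3 replicate 2 lists (65.9% of all genes), and 80.9% of all genes had a region in any list. The replicate 1 lists called regions at 0 of 5 genes in 4D (40.4% of all genes), 0 in 4A (44.0%) and 1 in WT (47.9%). The lists differ in length: replicate 1 held 5358 (4D), 6266 (4A) and 6764 (WT) peaks and replicate 2 held 21122, 24251 and 25911 in the same order. Read depth is unknown here, and a region absent from a list may still have been bound.

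**Figure D1:**
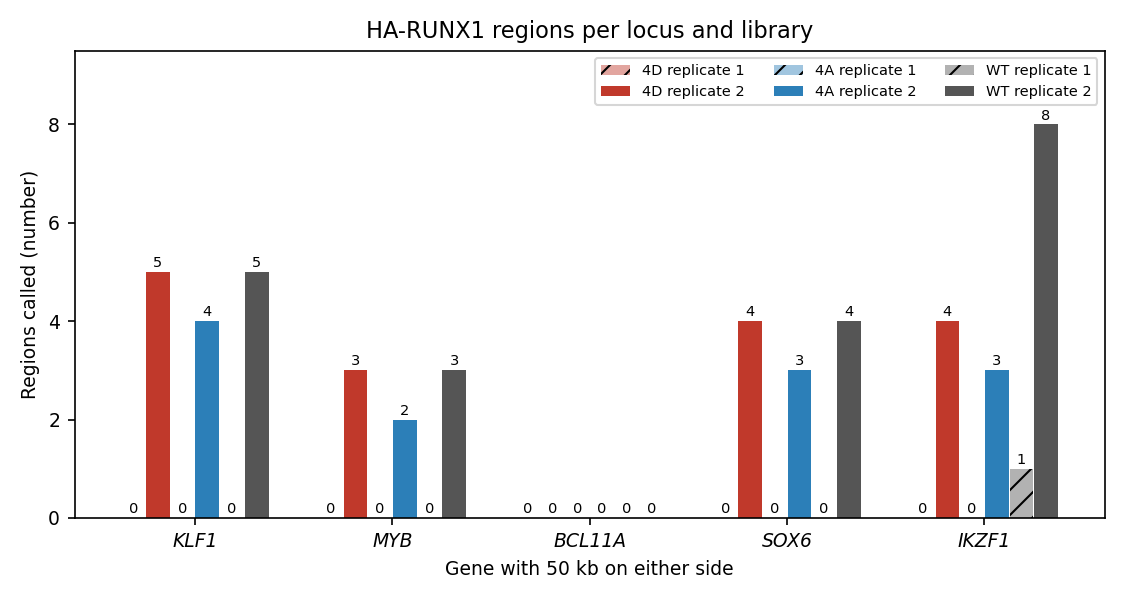
Number of regions called (y axis) within 50 kb of each gene (x axis), by library; solid bars are replicate 2 and hatched bars replicate 1, with the number above each bar. The counts lie in the replicate 2 lists apart from 1 region at IKZF1 in WT replicate 1, and BCL11A has none.

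Counted by library, 4D replicate 1 called 0 and 4D replicate 2 called 16 of the 26 regions. For 4A the numbers were 0 and 12, and for WT 1 and 20. Regions found in at least 1 replicate 1 list made up 1 of the 26, against 27.4% of all regions of the series. Regions found in all 3 replicate 2 lists were 6 of the 26 (23.1%), against 45.6% of all regions, and 0 were called in all 6 libraries (9.84%) or in both replicates of any line (25.2%). Called in a single library were 9 (34.6% against 34.5%). The percentile of the replicate 2 peaks at these genes within their own lists by −log10 q, the authors' significance of a peak, had a median of 21.2 in 4D (16 peaks, 1.51 to 67.1), 51.9 in 4A (12 peaks, 7.28 to 80.9) and 41.1 in WT (20 peaks, 1.99 to 81.9). Their fold enrichments over background, also the authors' values, lay between 2.77 and 13.1.

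KLF1 (gene ID 10661, chromosome 19, 12884422 to 12887201) was called over its own start site and inside the gene in the 4D and WT replicate 2 lists, and not in 4A. The region over the start site (12886923 to 12887490) had a −log10 q of 4.01 in 4D replicate 2 and 11.6 in WT replicate 2, at percentiles 17.7 and 54.1 of those lists. Its summit lay at -119 bp from the start site in 4D, inside the sequence printed above, and 68 bp downstream of it in WT. Farther inside the gene, the region from 12886115 to 12886411 had −log10 q of 2.28 in 4D and 8.09 in WT, and that from 12885432 to 12885573 was called in 4D alone at 2.49. Exons were not analysed here. These calls at KLF1 itself were thus made in 2 of 6 libraries, or 1, and the 4D peaks stood at percentiles 5.53 to 17.7 of their list.

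The other regions of the KLF1 window lay at neighbouring genes, of which the window holds 6. The strongest were 3.60 kb upstream of KLF1, over an end of GCDH, a mitochondrial dehydrogenase (12890799 to 12891131), and inside SYCE2, a synaptonemal complex protein (12908586 to 12908908). Whether an end of a neighbouring gene was its start site or its 3′ end was not examined. The GCDH region had −log10 q of 16.7 in 4D, 18.3 in 4A and 17.1 in WT, all replicate 2. The SYCE2 region had 12.0, 25.8 and 20.2 in the same order. Both were present in all 3 replicate 2 lists and absent from all 3 replicate 1 lists. A region at an end of MAST1, a kinase gene, was called in 4A (7.96) and WT (15.1), and one near FARSA, a tRNA synthetase subunit, in 4A alone (2.50). The farthest of these inside the limit of 50 kb lay 46.5 kb from KLF1. Just outside it, at 50.1 kb, lay a region in RTBDN called in the 3 replicate 2 lists, and at 50.4 kb one over an end of CALR, the gene of the chaperone calreticulin (12937593 to 12938612), called in all 6 libraries. Its −log10 q was 3.17 and 11.3 in 4D, 7.67 and 21.6 in 4A, and 9.11 and 19.2 in WT (replicates 1 and 2). The absence of a region called in both replicates near KLF1 therefore rests on the limit of the window, and the CALR region lies over an end of another gene.

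MYB (gene ID 4602, chromosome 6, 135181308 to 135219172) was called over its start site in each replicate 2 list. That region (135180575 to 135181441) had −log10 q of 5.93 in 4D, 11.5 in 4A and 12.4 in WT, and fold enrichments of 4.88, 6.09 and 7.47. The summits lay at -222 bp (4D), -238 bp (4A) and -139 bp (WT) from the start site, inside the printed sequence. The remaining 3 regions lay beyond the 3′ end of MYB, 34.7 to 43.0 kb outside it and nearest to AHI1, a ciliary gene. The region from 135253877 to 135254094 had 5.33 in 4D and 8.56 in WT, that from 135254511 to 135254703 had 2.92 in 4D alone, and that from 135262171 to 135262590 had 2.44 in 4A and 5.66 in WT. No peak of any list lay inside the gene apart from the start site region, and none within 50 kb upstream of it.

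**Figure D2:**
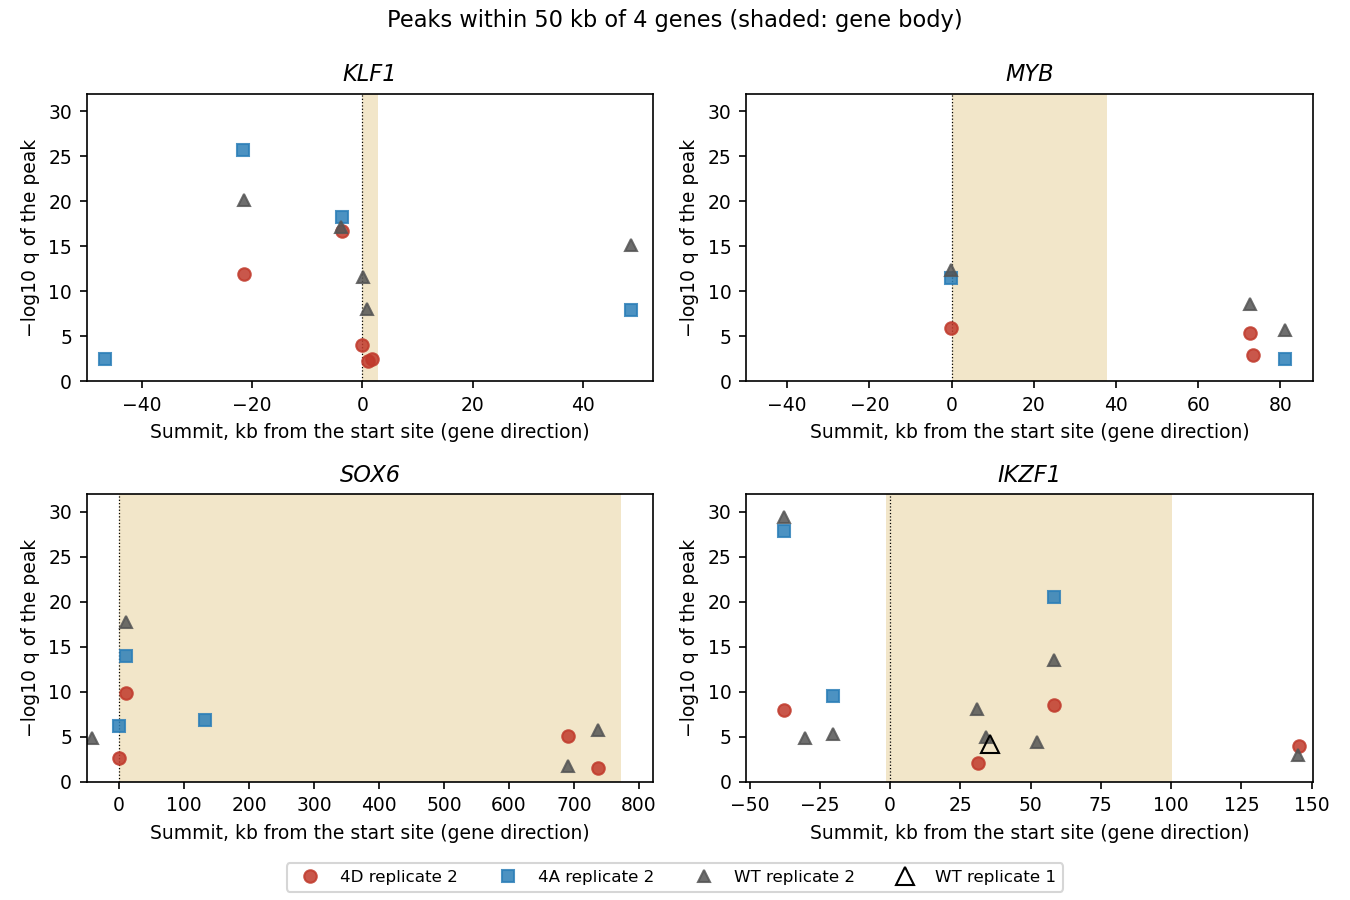
Peaks at KLF1, MYB, SOX6 and IKZF1 by distance of the summit from the start site in kb, along the direction of the gene (x axis), and −log10 q (y axis); circles are 4D, squares 4A and filled triangles WT replicate 2, the open triangle is WT replicate 1, and shading marks the gene body. Marks stand near the dotted start site line at KLF1, MYB and SOX6 and not at IKZF1, and the highest value is 29.5, upstream of IKZF1 in WT replicate 2.

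SOX6 (gene ID 55553, chromosome 11, 15966449 to 16738477) spans 772 kb, so its 6 regions were sparse. They came to 0.688 per 100 kb of window, against a median of 1.84 over all protein-coding genes, and 74.4% of those genes had a higher density. By number of regions, 19.7% of genes had more and 74.3% had fewer. One region lay in all 3 replicate 2 lists, 10.5 kb downstream of the start site (16727801 to 16728197), with −log10 q of 9.92 in 4D, 14.0 in 4A and 17.8 in WT. A region beside the start site (16738479 to 16738805) was called in 4D (2.62) and 4A (6.19) and not in WT. It lies 0.002 kb outside SOX6 and overlaps C11orf58, so it cannot be given to either gene. Its summits, at -106 bp (4D) and -69 bp (4A) from the SOX6 start, fall in the printed sequence between the matches at -169 and -18. Those letters, TGTGGN, were in 41.6% of promoters, and a link between them and the peaks was not tested. Deep in the gene, the regions starting at 16002099 and 16047018 were called in 4D (1.51 and 5.06) and WT (5.73 and 1.78). The region starting at 16605795 was found in 4A alone (6.91), and a region inside PLEKHA7, a cell junction gene, in WT alone (4.86).

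IKZF1 (gene ID 10320, chromosome 7, 50303455 to 50405101) had the most regions of the 5 genes, 9 in a window of 202 kb, a number that 8.28% of protein-coding genes exceeded. By density it had 4.46 regions per 100 kb (22.3% of genes higher), below KLF1 with 6.81 (10.3% higher). Of these, 3 lay 18.8 to 36.2 kb upstream of the gene, 5 inside it, and 1 over FIGNL1, a DNA repair gene. The most distant upstream one (50266756 to 50267258) had −log10 q of 8.03 in 4D, 27.9 in 4A and 29.5 in WT replicate 2. Among the regions at the 5 genes it had the highest value within the 4A and the WT list, and in the 4D list the GCDH region near KLF1 did. The region 58.2 kb downstream of the start site (50362831 to 50363070) was also in all 3 replicate 2 lists, with 8.50 in 4D, 20.6 in 4A and 13.5 in WT. At -20.3 kb from the start site a region was called in 4A (9.55) and WT (5.36). At 31.1 kb downstream one was called in 4D (2.06) and WT (8.15), and that over FIGNL1 was called in 4D (4.04) and WT (3.03).

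WT replicate 2 alone called 3 further regions at IKZF1 (−log10 q of 4.38 to 4.98), and WT replicate 1 called its single region inside the gene, 35.5 kb downstream of the start site (50340130 to 50340305, −log10 q of 4.22, rank 5826 of 6764 peaks). That region was in none of the replicate 2 lists, although these are longer, so the WT replicates had IKZF1 in common as a gene and no region of it in common. No library had a peak over the start site used here for IKZF1, the most upstream of the 3 in the promoter table. That site lies inside the gene, and the others were not examined.

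BCL11A (gene ID 53335, chromosome 2, 60450520 to 60553924) had no peak in any library, over a window of 203 kb that includes the gene body, which carries the known erythroid enhancer. Windows with no region in any list made up 19.1% of protein-coding genes, and 16.7% of the 3356 windows of at least 200 kb. The nearest region lay 192 kb away, 10.3 kb from PAPOLG, a poly(A) polymerase gene, and was called in 4A (12.3) and WT (7.78) replicate 2. Of all genes, 92.8% had a nearer region. The nearest region called in all 6 libraries was 917 kb away, at USP34.

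Peaks over the 300 bases from 250 before to 50 after the start site were found at 3 of the 5 genes in 4D replicate 2 (KLF1, MYB and SOX6), 2 in 4A replicate 2 (MYB and SOX6) and 2 in WT replicate 2 (KLF1 and MYB). The peaks counted for SOX6 are those that overlap C11orf58 and cannot be given to either gene. Only the most upstream listed start site of each gene was used, of 5 for SOX6, 5 for BCL11A and 3 for IKZF1. The shares over the 15841 protein-coding genes of the promoter table were 28.6% (4D), 33.1% (4A) and 33.3% (WT). In the replicate 1 lists 0 of 5 had one, against 9.73% (4D), 10.3% (4A) and 13.5% (WT) of all genes. Only MYB had such a peak in all 3 replicate 2 lists.

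For 4D against WT, the comparison asks whether the form with aspartate was called at other sites of these genes. No region at the 5 genes was called in both 4D replicates and neither WT replicate, or the reverse, against 0.131% and 0.545% of the regions of these 4 libraries over the genome. Between the replicate 2 lists, 3 of 23 regions were in 4D and not WT, 7 in WT and not 4D, and 13 in both. The shares of 13.0% and 30.4% stand beside 10.9% and 28.2% over the genome. The 3 of 4D were the region of 4D alone in KLF1, the one beyond MYB and that at the SOX6 start. Of the 7 of WT, 4 lay at IKZF1.

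For 4A against WT, likewise, 0 regions were called in both replicates of one line and neither of the other, against 0.222% (4A not WT) and 0.29% (WT not 4A) over the genome. Between the replicate 2 lists, 3 of 23 regions were in 4A and not WT and 11 in WT and not 4A, with 9 in both. The shares were 13.0% and 47.8%, against 16.6% and 22.4% over the genome. Of the 25 regions of any replicate 2 list, 4A called 12 (48.0%, against 72.0% over the genome), while 4D called 16 (64.0% against 62.4%) and WT 20 (80.0% against 77.4%). The order of the lines depends on the setting: 4D called the fewest with a flank of 100 kb (26 in 4D, 28 in 4A and 34 in WT), a minimum −log10 q of 5 (8, 10 and 14) and all lists at one length (0, 2 and 1). Called in 4D alone were 2 of the 25 (7.21% over the genome), in 4A alone 2 (13.1%) and in WT alone 4 (14.1%). The WT regions missing from 4A included those over the start site and inside KLF1, 2 deep in SOX6 and 5 at IKZF1.

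For 4D against 4A, 0 regions again parted the lines in both replicates, against 0.364% (4D not 4A) and 0.777% (4A not 4D) over the genome. Between the replicate 2 lists, 9 of 21 regions were in 4D and not 4A and 5 in 4A and not 4D, with 7 in both. The shares were 42.9% and 23.8%, against 16.1% and 27.4% over the genome. All 3 of the regions inside KLF1 were among the 9. The smallest p that an exact permutation of 2 against 2 libraries allows is 0.333, so no region was tested. The counts between replicate 2 lists compare single libraries of different list length, with no replicate check, and no difference between forms is read from them. The larger count changed sides with a flank of 100 kb (11 in 4D and not 4A, 13 in 4A and not 4D), a minimum −log10 q of 5 (2 and 4) and all lists at one length (0 and 2).

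Genes with the most alike pattern were found by the smallest Euclidean distance between the numbers of peaks in the 6 lists. The numbers of KLF1 (5 in 4D, 4 in 4A and 5 in WT replicate 2, 0 in replicate 1) were matched exactly by 4 genes with other windows, and KLHDC7B, SYCE3 and ELN were nearest in window length. Those of MYB were matched exactly by 44 genes, with ZXDC, RASSF4 and ATP1A4 nearest in length, and those of SOX6 by 15, with VAV3, SLC2A9 and AP2A2. For IKZF1 the smallest distance was 1.41, shared by 7 genes, of which NUP205, SLC13A4 and KCNH4 were nearest in window length. Genes matched to the same member can lie near one another and share peaks, so these counts are not of independent matches.

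Regulators of the same globin switch, in a list of 25 genes, included genes with regions in both replicates, which none of the 5 genes had. Within 50 kb, 16 of 25 had one in 4D, 16 in 4A and 18 in WT (64.0, 64.0 and 72.0%), against 39.2, 42.7 and 46.9% of all genes. Regions called in all 6 libraries lay within 10 kb of 10 of them (40.0% against 17.1% of all genes): ZBTB7A, a repressor of the fetal globin genes, NFIA and NFIX, MBD2 and GATAD2A of the NuRD complex, KDM1A and RCOR1 of the LSD1 complex, BACH1, NR2C2 and PRMT5. The ZBTB7A region (chromosome 19, 4065435 to 4066127) had −log10 q of 22.2 and 17.6 in 4D, 7.54 and 21.2 in 4A, and 18.4 and 17.5 in WT. Of the 2 regions near NFIX, 1 overlaps both NFIX and LYL1, and the other lies over LYL1, 3.78 kb outside NFIX.

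**Figure D3:**
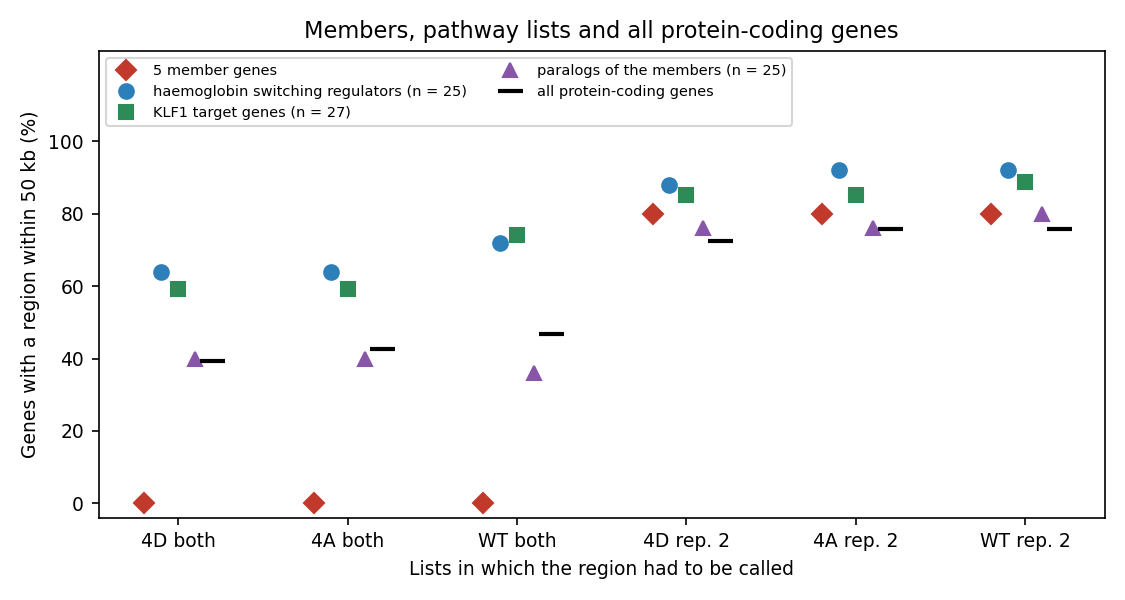
Percent of genes with a region within 50 kb (y axis) by the lists in which the region had to be called (x axis: both replicates of a line, or its replicate 2 list), for the 5 genes, 3 gene lists and all protein-coding genes. The 5 genes stand at 0% for both replicates of each line and at 4 of 5 genes in each replicate 2 list, where all protein-coding genes stand at 72.4% (4D), 75.7% (4A) and 75.9% (WT).

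Target genes of KLF1, in a list of 27, had regions within 50 kb in both replicates at 16 in 4D, 16 in 4A and 20 in WT (59.3, 59.3 and 74.1%, against 39.2, 42.7 and 46.9% of all genes). Regions of all 6 libraries lay within 10 kb of 5 of the 27 (18.5% against 17.1% of all genes), among them DMTN, which binds the membrane skeleton of red cells, CD44, ERMAP and PRDX2. The ERMAP region lies also over SVBP. The PRDX2 region (chromosome 19, 12789750 to 12790532) lies over HOOK2, 6.29 kb outside PRDX2 and 93.9 kb from KLF1. Of 25 paralogs of the 5 genes, 10 had a region within 50 kb in both replicates in 4D, 10 in 4A and 9 in WT (40.0, 40.0 and 36.0%, against 39.2, 42.7 and 46.9% of all genes). Those with a region of all 6 libraries within 10 kb were KLF10, KLF13, KLF17 and IKZF3 (16.0% against 17.1%). IKZF3 (Aiolos), a relative of IKZF1, held 2 such regions, of which that from 39757826 to 39758688 on chromosome 17 had −log10 q of 23.8 and 89.8 in 4D, 65.6 and 130 in 4A, and 29.7 and 89.4 in WT. The lists were described by these counts and not tested.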

How the data were processed

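The authors deposited 6 CUT&RUN peak lists, 1 per library of 4D, 4A and WT, with 2 replicates each. The empty vector line has no list and was not analysed here. Per the submitters' processing notes, the tools were MACS2 2.2.7.1, deepTools 3.5.1, Picard 2.25.6, Bowtie2 2.4.2 and cutadapt 3.4, with hg38. Their options are not given in the sources used here. Each deposited peak has a score, its q-value and p-value as −log10, a summit and a linear ratio of signal over background (its fold enrichment). They served to order peaks inside their own list, never to measure a change between lists. The depth of reads is unknown.

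Of the peaks, 61 lay off chromosomes 1 to 22, X and Y and were left out. Peaks overlapping by at least 1 bp over the 6 lists were merged into regions. A region counted for a line where its 2 replicates both called it. Genes, start sites and promoter sequences came from RefSeq tables of GRCh38.p14. No genome was used, so region sequences and exons were not analysed here. Percentiles rank peaks by −log10 q within a list. Background shares cover all protein-coding genes or regions. Merging and windows were tested on simulated intervals, with Python 3.11.15 and pandas 2.3.3.

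The 5 genes and the gene lists were chosen with earlier results of these data known. Named genes are the members, genes at their regions, for each member the 3 genes with the nearest pattern of peak counts, and list genes within 10 kb of a region called in all 6 libraries. The rule for genes at regions asked for regions called in all 6 libraries or parting 2 lines, of which there were 0, so genes at regions were named after their values were seen. Of the KLF1 target list, 1 gene that the rule names is not reported here. Alternatives changed the flank, the q threshold, list lengths, summit windows, the gene assignment and the replicates.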

Additional observations from a re-analysis of the deposited data

How the results depend on the processing

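No paired analysis was possible because the results are counts that come from no test; values within each replicate number are given in their place. The count of 0 regions in the set of each line stayed 0 with a flank of 10 kb, a minimum −log10 q of 5, lists shortened to equal length within each number or all to one length, and summit windows. With a flank of 100 kb it was 3 in 4D, 2 in 4A and 3 in WT, all at KLF1, so 1 locus each. Leaving out 1 replicate number gave 0 to 16 regions in 4D, 0 to 12 in 4A and 1 to 20 in WT, at 0 to 4, 0 to 4 and 1 to 4 loci. The counts that part the lines ran from 0 to 3 (4D not WT), 1 to 7 (WT not 4D), 0 to 3 (4A not WT), 1 to 11 (WT not 4A), 0 to 9 (4D not 4A) and 0 to 5 (4A not 4D). All depend on which replicate is used, since the replicate 2 lists hold nearly all regions.

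The replicate 2 alternatives were chosen after seeing the data. The counts of 16 (4D), 12 (4A) and 20 (WT) became 11, 6 and 11 with a flank of 10 kb, 26, 28 and 34 with 100 kb, 8, 10 and 14 with the minimum −log10 q of 5, and 9, 5 and 12 by nearest gene end. With equal lengths within each number they were 16, 10 and 18, and with all lists at one length (5358 peaks) 0, 2 and 1. At 100 kb 4A thus no longer had the fewest, nor with the q threshold or at one length. For 4D not WT and WT not 4D, the counts of 3 and 7 became 2 and 2 at 10 kb, 5 and 13 at 100 kb, 1 and 7 with the q threshold, 5 and 7 at equal lengths and 0 and 1 at one length. For 4A not WT and WT not 4A, 3 and 11 became 2 and 7, 7 and 13, 2 and 6, 2 and 10, and 1 and 0 in the same order. For 4D not 4A and 4A not 4D, 9 and 5 became 6 and 1, 11 and 13, 2 and 4, 9 and 3, and 0 and 2. The larger count changed sides under 3 of these settings in the last pair and at one length in the second. Summit windows moved no count by over 1.5 times. The causes were not tested.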

Other observations

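Between 50 and 100 kb from the genes lay regions that the windows do not count. Upstream of MYB, towards HBS1L, an interval known in humans for enhancers of MYB linked to fetal haemoglobin, 4 regions were called in replicate 2 lists, 52.0 to 93.8 kb from the gene. That at 62.9 kb (chromosome 6, 135118136 to 135118419) was in all 3, with −log10 q of 6.89 in 4D, 8.46 in 4A and 6.94 in WT. The nearest region of MYB called in all 6 libraries lay 104 kb away inside AHI1 (135322951 to 135323544), with −log10 q of 23.7 and 41.6 in 4D, 28.7 and 75.6 in 4A, and 48.3 and 68.6 in WT.

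On the 3′ side of KLF1, 5 regions lay 90.5 to 97.8 kb away around JUNB and HOOK2. JUNB encodes an AP-1 transcription factor of immediate early response. The region from 12789750 to 12790532 on chromosome 19 was called in all 6 libraries, with −log10 q of 4.17 and 36.0 in 4D, 6.81 and 50.9 in 4A, and 15.9 and 45.9 in WT. It is the same region as that given above for PRDX2. A region at 92.6 kb was called in both WT replicates and in replicate 2 of 4D and 4A, and one at 90.5 kb in both 4D replicates and in replicate 2 of 4A and WT. For SOX6 and IKZF1 the nearest regions called in all 6 libraries lay 538 kb away at NUCB2 and 387 kb away at GRB10, against a median of 153 kb over all protein-coding genes.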
